A study of Mus musculus castaneus and Mus musculus domesticus with 13 samples.

Results

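The cytosolic ribosomal protein genes encode the proteins of the small and large ribosomal subunits in the cytoplasm. They were chosen here by symbol, as rows of the count table named Rpl or Rps with a number and an optional a or x, together with Rplp0, Rplp1, Rplp2 and Rpsa. This rule found 76 of the 21706 rows, of which 30 encode small subunit proteins and 46 encode large subunit proteins, the P stalk included. The rule used no measured value, though the set was chosen with earlier results of these data known. All 76 genes passed the filter on low counts.

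RNA was sequenced in 13 libraries. Nuclear transfer embryonic stem cell (ntESC) lines had been made by moving leukocyte nuclei from peripheral blood into enucleated oocytes of laboratory mice. They comprised 2 lines from the laboratory hybrid B6D2F1 (male #M3 and female #F2), 4 lines from CAST (CAST/Ei; #M2, #M8, #F1 and #F2) and 4 lines from CASP (CASP/1Nga; #M3, #M5, #F4 and #F6). CAST and CASP are wild-derived strains of Mus musculus castaneus, and B6D2F1 belongs to M. m. domesticus. The other libraries were 1 B6D2F1 ESC line derived from a fertilized embryo, 1 culture of B6D2F1 embryonic fibroblasts (MEF) and 1 culture of CAST tail-tip fibroblasts (TTF). Every ntESC line was kept on mitomycin-treated C57BL/6NCrSlc feeder fibroblasts, which were reduced by plating on gelatin before RNA was taken. Each line is 1 clone, so the p-values of single genes for strain and sex measure the spread between lines of a strain. The test against fibroblasts had no strain term, so differences between strains are part of its spread. In the permutation tests of castaneus against B6D2F1, the CAST and CASP lines were pooled. Reads of all strains were aligned to the same laboratory mouse genome, GRCm38.

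Each ribosome holds its core proteins in a nearly fixed ratio, and cells make these proteins in step from genes scattered over many chromosomes. Their mRNAs are short, abundant and share a pyrimidine tract at the 5′ end through which mTOR signalling controls their translation. Mammalian genomes also carry many intronless copies of these mRNAs that were inserted by retrotransposition, most of them annotated as pseudogenes. A read from such an mRNA can match the gene and several copies almost equally well. In the count table, 441 rows were such copies of 74 of the 76 genes. Of these, 164 carried the name of their gene and 277 were found by sequence alone, with at least 90% identity over at least 50% of either sequence. Rpl8 was one of the genes with no copy. Reads that fit a gene and a copy cannot be told apart in a count table, so the level of every gene with copies is uncertain. The copies are given beside the main results between strains. The values for sex, for ntESC lines against fibroblasts and for correlations between lines are of the genes alone.

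The sequences below show how close a gene and its copy are in the reference. For each gene the copy with most counts was aligned to the coding sequence, and the stretch of 60 coding bases with most differences is printed 5′ to 3′ from the GENCODE M21 transcripts on GRCm38. Capitals mark the bases that differ between gene and copy. Rps2, Rps26, Rps15 and Rps6 are shown because they were lower in both castaneus strains, and Rps23 because it was lower in CASP alone. Rpl21 is shown because the sum of its copies, averaged over the castaneus lines, did not rise. These 6 were picked after their values were seen.
Rps2: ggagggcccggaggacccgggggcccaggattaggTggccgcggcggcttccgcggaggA
Rps2-ps13: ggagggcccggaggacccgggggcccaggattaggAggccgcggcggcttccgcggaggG
Rps26: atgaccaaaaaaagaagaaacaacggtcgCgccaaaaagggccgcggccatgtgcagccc
Rps26-ps1: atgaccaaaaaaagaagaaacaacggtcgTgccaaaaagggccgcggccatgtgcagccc
Rps15: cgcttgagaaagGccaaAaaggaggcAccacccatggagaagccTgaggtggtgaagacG
Rps15-ps2: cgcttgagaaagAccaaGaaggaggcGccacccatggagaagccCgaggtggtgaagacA
Rps6: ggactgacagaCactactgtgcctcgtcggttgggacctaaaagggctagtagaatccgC
Gm8172: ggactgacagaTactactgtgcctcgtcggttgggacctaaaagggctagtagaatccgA
Rps23: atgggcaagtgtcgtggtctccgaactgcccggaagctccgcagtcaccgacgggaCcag
Rps23-ps2: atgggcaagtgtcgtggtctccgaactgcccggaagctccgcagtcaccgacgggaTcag
Rpl21: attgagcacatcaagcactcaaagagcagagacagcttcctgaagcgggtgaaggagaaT
Gm13370: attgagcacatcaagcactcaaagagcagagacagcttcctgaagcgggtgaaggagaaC

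Over the whole coding sequence, Rps2-ps13 differed from Rps2 by 7 substitutions in 879 bases, and Rps15-ps2 from Rps15 by 10 in 435. Gm8172 differed from Rps6 by 6 substitutions in 747 bases, Rps26-ps1 from Rps26 by 2 in 345, Rps23-ps2 from Rps23 by 2 in 429 and Gm13370 from Rpl21 by 2 in 480. A read of 100 bases drawn from the coding sequence would hold no difference from the copy at 37.3% of the start positions in Rps2, 56.9% in Rps26, 39.4% in Rps6 and 0.6% in Rps15. The libraries were sequenced as read pairs, and only coding bases and 1 copy of each gene were compared here. These values are therefore not shares of sequenced fragments. Rps2 lies on chromosome 17 (24718116 to 24721929, plus strand) and Rps2-ps13 on chromosome X (52898588 to 52899469, plus strand). Rps26 lies on chromosome 10 (128624534 to 128626747, minus strand) and its copy on chromosome 8 (107439131 to 107439579, minus strand). The castaneus genomes were not used here, so which of these bases the CAST and CASP genes carry was not examined.

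The libraries held 33395162 to 49968894 counts. Levels are given as CPM, counts per 1000000 counts of the library after TMM scaling. Values of the CAST lines are in the order #M2, #M8, #F1, #F2 and those of the CASP lines in the order #M3, #M5, #F4, #F6. Pluripotency markers summed to 3239 to 4551 CPM in the ntESC lines and to 3595 CPM in the ESC line, against 18.6 CPM in MEF and 0.395 CPM in TTF. All 10 fibroblast markers were detected in the ntESC lines, where they summed to 90.2 to 95.9 CPM in B6D2F1, 122 to 420 CPM in CAST and 63.8 to 375 CPM in CASP, against 5461 CPM in MEF. Leukocyte markers, the type that gave the nuclei, summed to 3.97 to 8.09 CPM in the ntESC lines, with S100a8 and S100a9 at 0.

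The 76 genes took a smaller share of the counts in castaneus lines than in B6D2F1 lines, and their copies took a larger one. The genes held 6.70% and 6.57% of all counts in B6D2F1 #F2 and #M3. They held 5.72%, 5.80%, 6.18% and 5.70% in the CAST lines, and 5.75%, 5.18%, 5.63% and 5.34% in the CASP lines. Every castaneus line was below both B6D2F1 lines. The difference between castaneus and B6D2F1 was -0.97 percentage points, with p = 0.0444 in a two-sided exact permutation test, the smallest value that 8 lines against 2 allow. The copies held 1.35% ± 0.00368 (SD, n = 2) in B6D2F1, 2.21% ± 0.124 (n = 4) in CAST and 2.32% ± 0.134 (n = 4) in CASP, a difference of 0.911 points with the same exact p = 0.0444. Genes and copies together held 7.99% ± 0.083, 8.06% ± 0.346 and 7.79% ± 0.383 in the 3 strains, which differed by less than the spread between lines (difference -0.062 points, exact permutation p = 0.756). CASP and CAST did not differ beyond the spread in the share of the genes (exact permutation p = 0.0857, with 0.0286 the smallest that 4 against 4 allow). The ESC line held 7.19% on the genes and 1.46% on the copies. MEF held 3.83% and 0.805%, and TTF held 2.19% and 0.826%.

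**Figure D1:**
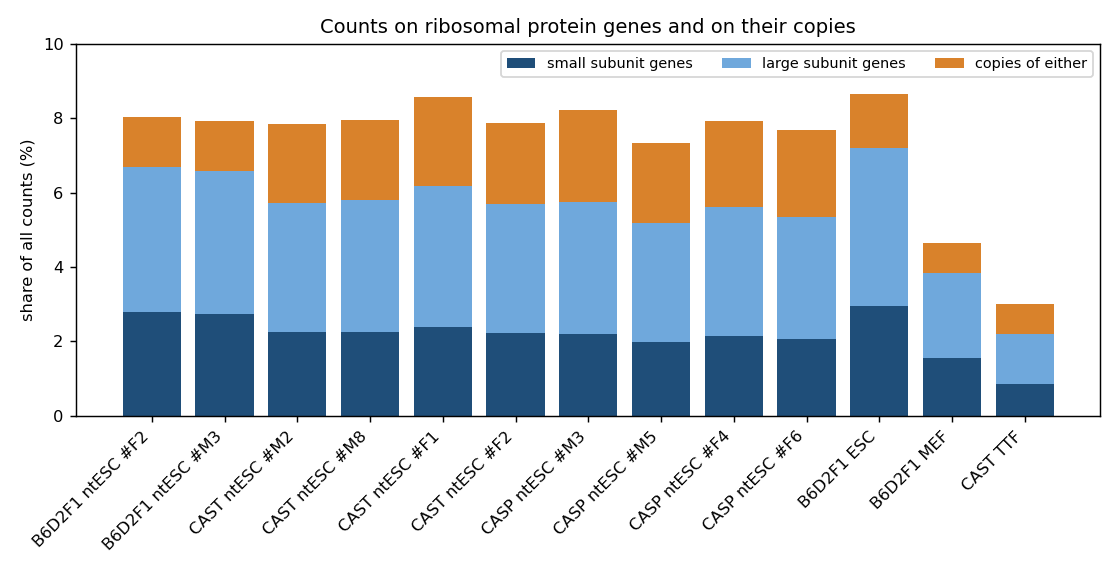
Share of all counts in each library on small subunit genes, large subunit genes and their copies (%; each bar is 1 library). The bars of genes and copies together reach 7.33% to 8.58% in the 10 ntESC lines, while the share on copies lies at 1.35% to 1.36% in B6D2F1 and at 2.13% to 2.48% in CAST and CASP.

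Counted without copies and taken as a sum, the small subunit genes lost more of their counts than the large subunit genes. Rps2, a small subunit gene, alone fell from 1638 CPM in B6D2F1 to 58.6 CPM in castaneus lines, and the ratio below was not computed without it. Counts of the small subunit genes stood in a ratio of 0.716 ± 0.00428 (SD, n = 2) to those of the large subunit genes in B6D2F1, 0.636 ± 0.0102 (n = 4) in CAST and 0.622 ± 0.00947 (n = 4) in CASP. All 8 castaneus lines lay below both B6D2F1 lines (exact permutation p = 0.0444, the smallest possible). The ratio was 0.701 in the ESC line, 0.684 in MEF and 0.628 in TTF. With copies counted in, most of the gap was gone: the ratio was 0.668 ± 0.00127 in B6D2F1, 0.646 ± 0.0056 in CAST and 0.641 ± 0.00465 in CASP, a difference between castaneus and B6D2F1 of -0.0244 against -0.0871 without copies. All 8 castaneus lines still lay below both B6D2F1 lines (exact permutation p = 0.0444).

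Gene by gene, a few members fell steeply in castaneus lines, a longer tail fell slightly and most of the rest moved little. In castaneus against B6D2F1 lines, 30 genes were lower and 1 was higher at an edgeR quasi-likelihood adjusted p under 0.05, and 45 did not pass. Over all 20226 genes tested, 17.2% were lower and 17.2% were higher, so the share of the members called lower (39.5%) was above the background and the share called higher (1.32%) was below it. The median log2 fold change was -0.18 over the members and 0.02 over all genes. Of the 30 small subunit genes, 13 were lower and none higher, and of the 46 large subunit genes 17 were lower and 1 higher. A fall of at least 1 on the log2 scale was called in 10 members (7.49% of all genes). They were Rps2, Rpl7a, Rpl29, Rpl21, Rpl35a, Rps18, Rps15, Rps26, Rps23 and Rps6, and Rpl39, at -0.999, lay just outside this bound.

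**Figure D2:**
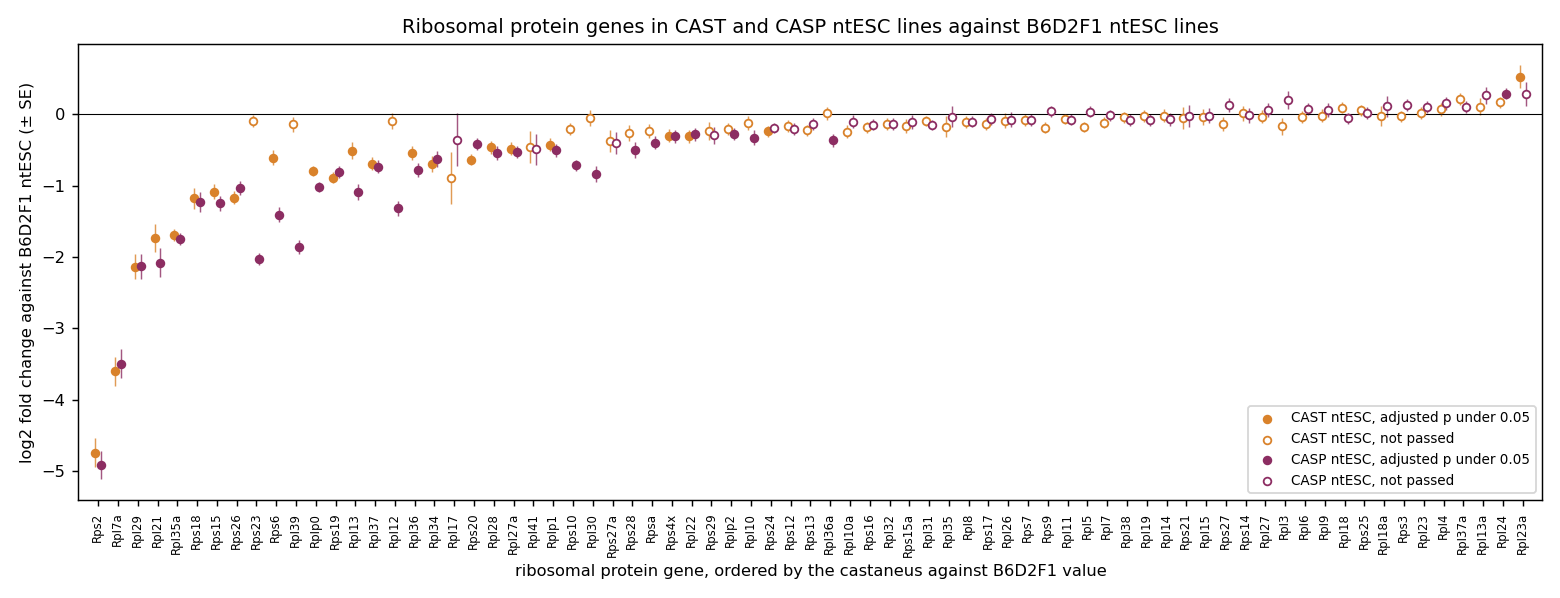
Log2 fold change of ribosomal protein genes in CAST (orange) and CASP (purple) lines against B6D2F1 lines, with its standard error, in order of the castaneus value; filled points passed an adjusted p of 0.05. The 2 strains lie close together for Rps2, Rpl7a, Rpl29 and Rpl35a and apart for Rps23, Rpl39 and Rpl12.

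Rps2, a small subunit protein near the channel through which mRNA enters, had the steepest fall. It was at 1629 and 1647 CPM in B6D2F1 #F2 and #M3 and at 1601 CPM in the ESC line. The CAST lines had 49.4, 90.2, 57.7 and 51.3 CPM, and the CASP lines had 58.2, 55.6, 58.1 and 48.1 CPM. The groups were far apart. On the log2 scale Rps2 differed by -4.83, with a standard error of 0.16, and passed at an edgeR adjusted p of 2.0e-08 (errors of log2 fold changes are standard errors throughout). Its copies moved the other way, from 1003 CPM in B6D2F1 to 2576 CPM in CAST and 2320 CPM in CASP. The copy on chromosome X printed above, Rps2-ps13, was at 117 and 105 CPM in the B6D2F1 lines, between 1691 and 1911 CPM in the CAST lines and between 1479 and 1702 CPM in the CASP lines. With all 31 copies counted in, Rps2 differed by -0.08 ± 0.07 (adjusted p = 0.45, edgeR).

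The large subunit genes Rpl7a, Rpl29, Rpl21 and Rpl35a fell in both castaneus strains. Rpl7a was at 328 and 485 CPM in the B6D2F1 lines, at 31.1, 39.0, 33.4 and 31.1 CPM in the CAST lines and at 40.7, 25.8, 36.6 and 42.0 CPM in the CASP lines (log2 fold change -3.55 ± 0.16, edgeR adjusted p = 2.2e-07). Every castaneus line was below the ESC line (299 CPM) and the B6D2F1 MEF (206 CPM) as well. Rpl29 fell from 111 and 105 CPM in B6D2F1 to between 19.2 and 30.5 CPM in the 8 castaneus lines (-2.13 ± 0.15). Rpl35a, one of the genes mutated in human Diamond-Blackfan anaemia, fell from 508 and 530 CPM to between 148 and 174 CPM (-1.72 ± 0.07). The counts of these 3 genes and of their copies moved in opposite directions. The copies went from 1062 CPM in B6D2F1 to 1186 CPM in CAST and 1424 CPM in CASP for Rpl7a, from 301 CPM to 390 and 413 CPM for Rpl29, and from 45.9 CPM to 319 and 300.2 CPM for Rpl35a. With copies counted in, Rpl7a (-0.14 ± 0.11) and Rpl29 (0.06 ± 0.08) no longer passed, and Rpl35a kept a smaller fall (-0.27 ± 0.07, adjusted p = 0.015, edgeR).

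Rpl21 fell while the sum of its copies, averaged over the castaneus lines, stayed nearly level. It was at 65.5 and 63.7 CPM in B6D2F1 and between 10.2 and 21.6 CPM in the castaneus lines (-1.91 ± 0.17, edgeR adjusted p = 1.9e-05), while its 28 copies together held 922 CPM in B6D2F1, 944 CPM in CAST and 896 CPM in CASP. Single copies did not all stay level: Gm13370, printed above, was at 153 and 150 CPM in B6D2F1 and between 163 and 196 CPM in the castaneus lines. The 28 copies together already took 93.5% of the combined counts in B6D2F1 lines and took 98.1% in castaneus lines. The combined value did not pass (-0.07 ± 0.07).

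**Figure D3:**
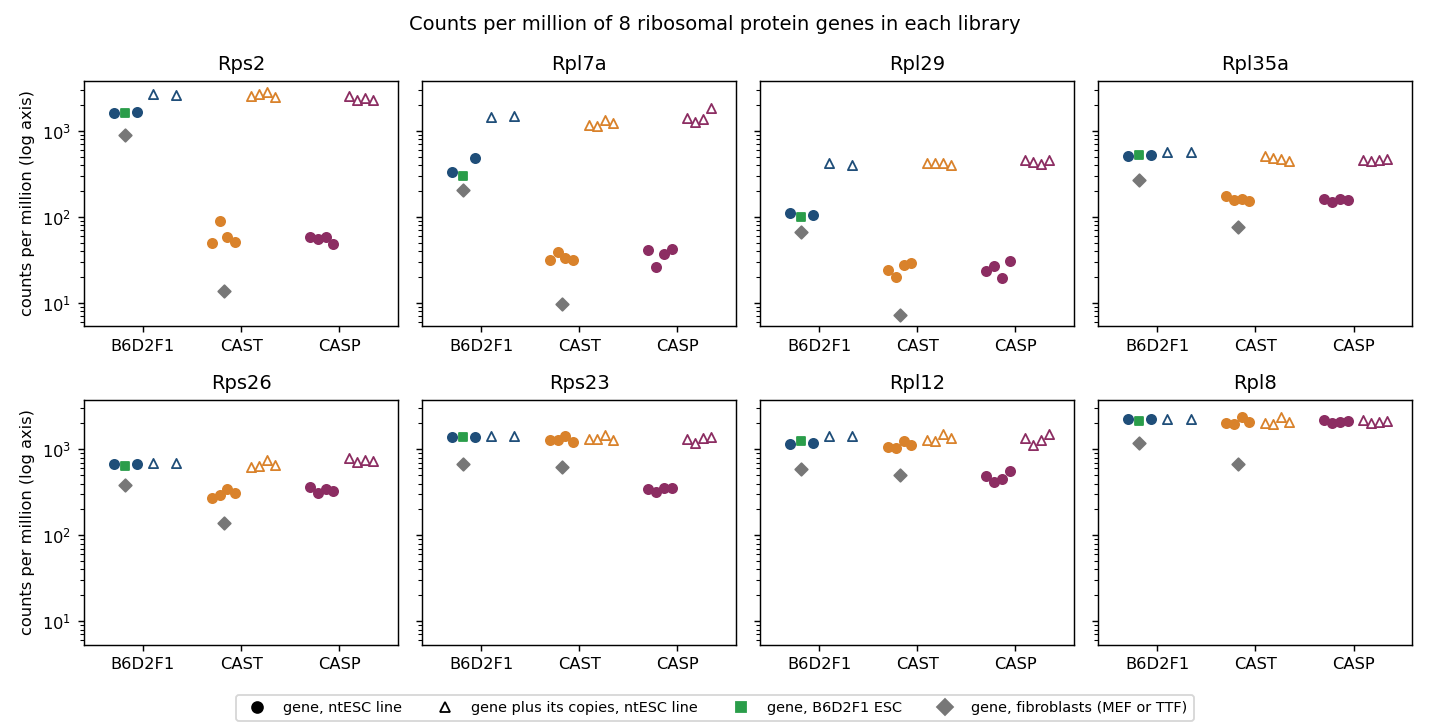
CPM (log axis) of 8 genes in every library by strain; filled circles are the gene in 1 ntESC line, open triangles the gene plus its copies in the same line, green squares the ESC line and grey diamonds the fibroblasts. The filled circles of Rps2 drop from 1629 and 1647 CPM in B6D2F1 to 90.2 CPM or less in CAST and CASP while the triangles stay far above them, and Rpl8, which has no copy, lies between 1971 and 2355 CPM in the 10 ntESC lines.

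The small subunit genes Rps15, Rps26, Rps18 and Rps6 fell by 1.01 to 1.20 on the log2 scale. Rps26, which touches mRNA near the exit channel, was at 678 and 675 CPM in the B6D2F1 lines, at 273, 292, 347 and 307 CPM in the CAST lines and at 360.5, 314, 343 and 325 CPM in the CASP lines (-1.10 ± 0.09, edgeR adjusted p = 8.2e-06). Rps26-ps1 went from 13.8 and 17.6 CPM in B6D2F1 to between 331 and 425 CPM in the castaneus lines. The gain of the 2 copies of Rps26 was 103% of the loss of the gene, and the combined value was 0.02 ± 0.08 (adjusted p = 0.87, edgeR). Rps6, the substrate of S6 kinase, was at 1356 and 1336 CPM in B6D2F1, between 785 and 1049 CPM in CAST and between 484 and 547 CPM in CASP. Gm8172, its copy on chromosome X, was at 19.4 and 19.3 CPM in B6D2F1, between 469 and 594 CPM in CAST and between 812 and 945 CPM in CASP. Rps15 kept most of its fall. It went from 987 and 979 CPM in B6D2F1 to between 430.3 and 519 CPM in CAST and between 384 and 479 CPM in CASP, its 3 copies gained 25.1% of that loss, and the combined value was -0.76 ± 0.09 (edgeR adjusted p = 1.8e-04). Rps18 fell from 1038 and 1097 CPM to between 411 and 585 CPM, while its copies went from 618 CPM in B6D2F1 to 1167 CPM in CAST and 1044 CPM in CASP, and the combined value was -0.10 ± 0.10 (adjusted p = 0.49, edgeR). The counts of its copy Rps18-ps6 were 0 in B6D2F1 #F2 and 502 CPM in #M3, so single copies were not measured alike even within a strain.

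Across the 76 genes, 30 were called lower, and the copies of 25 of these gained counts. Copies also gained in 26 of the 43 genes with copies that did not pass. For 20 of the 30, the gain was at least 50% of the loss. Summed over all members, the genes dropped by 11405 CPM from B6D2F1 to castaneus lines and the copies gained 8667 CPM, which is 76% of it. This part depends on the TMM scaling of CPM. In shares of all counts, which are not so scaled, the difference was -0.97 points for the genes and 0.911 points for the copies. With copies counted in, 9 genes stayed lower, or 11.8% of the members against 16.1% of all genes. In the same fit 2 were higher, or 2.63% of the members against 17.2% of all genes. Both shares of the members were thus below the background. The median log2 fold change over the members went from -0.18 to -0.05. The 9 were Rps15, Rps20, Rplp1, Rps28, Rpl13, Rpl35a, Rpl22, Rplp2 and Rps24, between -0.76 and -0.20. Of these, Rps20, Rplp1, Rps28, Rplp2, Rps24 and Rpl22 had copies that gained less than 5% of the loss or lost counts too. Rplp1 and Rplp2 form the flexible stalk that recruits translation factors. Rplp1 was at 1842 and 1787 CPM in B6D2F1 and between 1201 and 1509 CPM in the castaneus lines, with its copy at 9.91 CPM in B6D2F1, 10.2 CPM in CAST and 9.76 CPM in CASP (combined value -0.45 ± 0.08, edgeR adjusted p = 0.0022). The call of Rplp1 alone was lost without B6D2F1 #F2. Rps19, the gene most often mutated in human Diamond-Blackfan anaemia, changed its direction: alone it fell by 0.85, and with its copies it was higher by 0.31 ± 0.08 (edgeR adjusted p = 0.013). Rpl8, which has no copy, did not pass. It was at 2230.4 and 2241 CPM in B6D2F1 and between 1971 and 2355 CPM in the castaneus lines (-0.10 ± 0.07).

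**Figure D4:**
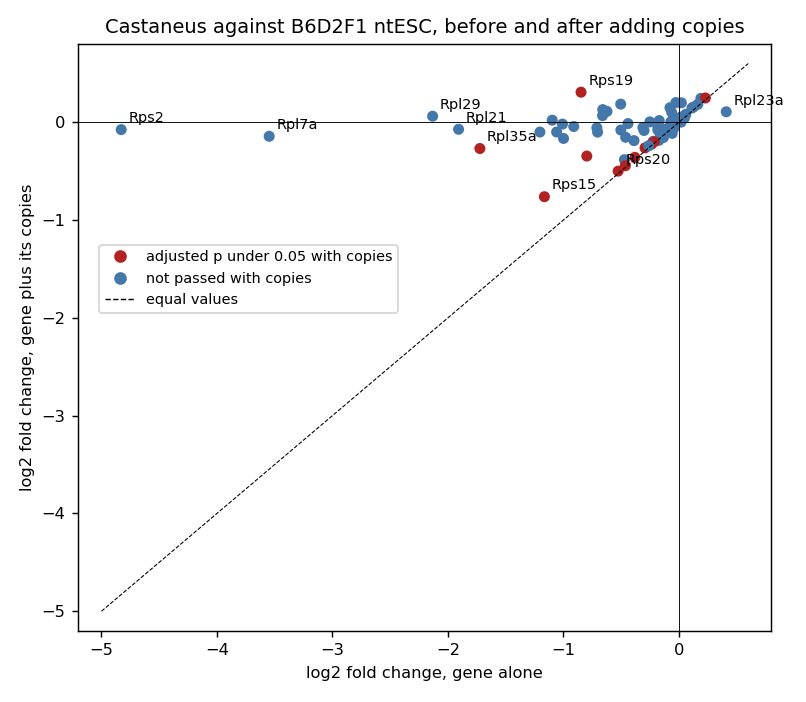
Log2 fold change of each of the 76 genes in castaneus against B6D2F1 ntESC lines, for the gene alone (horizontal axis) and for the gene plus its copies (vertical axis). With copies the values run from -0.76 (Rps15) to 0.31 (Rps19), while those of the genes alone reach -4.83 (Rps2).

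Rpl24 was the gene called higher in castaneus lines, at 546 and 570 CPM in B6D2F1 and between 611 and 736 CPM in the castaneus lines (0.23 ± 0.07, edgeR adjusted p = 0.033). The call was lost when CAST #M2, CAST #M8, CASP #M5 or either B6D2F1 line was left out. Rpl24 overlaps the transcript Gm28037 on the same strand, whose level was 0.486 CPM in B6D2F1, 0.359 CPM in CAST and 14.8 CPM in CASP. Rpl23a, the higher gene in CAST, went from 315 and 325 CPM to between 405 and 513 CPM (0.53 ± 0.17, edgeR adjusted p = 0.032), and its 7 copies stood at 755 CPM in B6D2F1 and 727 CPM in CAST. This call was lost without CAST #M2, #M8 or #F1 or either B6D2F1 line. With copies counted in, no large subunit gene was called higher in CAST, Rpl23a included. In castaneus against B6D2F1 lines the combined value of Rpl23a was 0.11 ± 0.09 (adjusted p = 0.38, edgeR).

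Taken strain by strain, CAST lines had 23 lower members (15.3% of all genes) and 1 higher (17.4%), and CASP lines had 31 lower (17.5%) and 1 higher (17.9%, Rpl24, a call lost without either B6D2F1 line). These comparisons share the 2 B6D2F1 lines. The difference between the castaneus strains was tested directly, and 9 members were lower (16.4%) and 6 higher (15.2%) in CASP than in CAST. The lower ones were Rps23, Rpl39, Rpl12, Rps6, Rpl30, Rpl13, Rps10, Rpl36a and Rplp0. The higher ones, Rpl3, Rps27, Rps9, Rps20 and Rpl5 among them, differed by 0.37 or less, and only 1 higher call was made when CAST #M8 was left out. Rpl3 also lost its call without CAST #M2, Rps9 without CAST #M2 or CASP #M3, Rps20 without CAST #F1, CASP #M3 or CASP #M5, and Rps27 without CAST #F1 or #F2. Rps2, Rpl7a, Rpl29 and Rpl35a did not pass between the castaneus strains, with differences of -0.17 ± 0.16, 0.11 ± 0.17, 0.00 ± 0.15 and -0.06 ± 0.07.

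Rps23, a protein of the decoding centre, set CASP apart from the other strains. It was at 1375 and 1382 CPM in B6D2F1 and at 1291, 1287, 1414 and 1220.4 CPM in the CAST lines. In the CASP lines it was at 341, 315, 357 and 359 CPM, a log2 difference from CAST of -1.93 ± 0.07 (edgeR adjusted p = 1.2e-07). Rps23-ps2, printed above, was at 7.64 and 8.16 CPM in B6D2F1 and between 7.94 and 11.02 CPM in CAST, and at 843, 758, 859 and 879 CPM in the CASP lines. With copies the difference between CASP and CAST was -0.06 ± 0.07 (adjusted p = 0.58, edgeR).

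Rpl39, which lines the tunnel for the growing chain, and Rpl12, at the base of the stalk, showed the same layout. Rpl39 was at 304 and 259 CPM in B6D2F1, between 245 and 277 CPM in CAST and between 70.3 and 84.2 CPM in CASP, and Rpl39-ps was at 14.7 and 11.9 CPM in B6D2F1, between 9.87 and 12.3 CPM in CAST and between 163 and 198 CPM in CASP. Rpl12 was at 1165 and 1194 CPM in B6D2F1, between 1042 and 1245 CPM in CAST and between 421 and 554 CPM in CASP. Its copy Gm9396 was at 32.6 and 33.3 CPM in B6D2F1, between 19.1 and 32.5 CPM in CAST and between 322 and 466 CPM in CASP. Neither gene passed between CASP and CAST with copies, at -0.09 ± 0.07 for Rpl39 and -0.03 ± 0.09 for Rpl12. Rpl36a, on chromosome X, did: it differed by -0.38 ± 0.07 alone and by the same -0.38 ± 0.07 with copies (edgeR adjusted p = 0.0025).

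Members were also compared with each other as levels per kilobase of joined exons, which puts genes of different length on one scale. Rplp1 was highest, at 2859 ± 449 CPM per kb (SD over the 10 ntESC lines), followed by Rpl8 at 1570 ± 91.0 and Rpl4 at 1385 ± 102. Rpl21 (7.9 ± 5.9), Rpl29 (36.9 ± 31.3) and Rps19 (60.9 ± 17.8) were lowest. With the length of the annotated coding transcript, Rps24 (2449 ± 176) took the place of Rpl4 among the 3 highest and Rpl7a (119.6 ± 176) that of Rps19 among the 3 lowest, and Rps19 stood at 369 ± 108. These differ widely for proteins that are needed in nearly equal numbers, and the order depended on the gene length used, on the strain and on the copies. Rps2 ranked 10 of 76 in B6D2F1 and 73 in castaneus lines, and with copies it ranked 5 and 6. Rpl7a ranked 61 and 75, and with copies 16 and 18. The SD over members of the log2 level per kb was 1.14 in B6D2F1, 1.48 in CAST and 1.501 in CASP, and 0.95, 0.95 and 0.93 with copies. With the length of the annotated coding transcript in place of all exons it was 0.96, 1.35 and 1.38, and 0.73, 0.75 and 0.71 with copies. In TTF it was 1.65, against 1.12 in MEF, and with copies it was 0.95 and 0.96. Levels of the members correlated at r = 0.985 to 0.996 between lines of 1 strain, at 0.941 to 0.959 between CAST and CASP lines and at 0.766 to 0.835 between B6D2F1 and castaneus lines, across genes, which are not replicates.

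Scaled to the members themselves, so that the median member was held level, 24 members were lower (10.8% of all genes) and 8 higher (23.1%) in castaneus lines. This scaling moved the median of all genes from 0.02 to 0.20. The steep falls kept their order, from Rps2 at -4.66 to Rpl35a at -1.55. The 8 higher members, between 0.23 and 0.59, included Rpl23a, Rpl24, Rpl13a, Rpl37a, Rpl4, Rpl23 and Rps3, of which only Rpl24 was called higher with the TMM scaling used elsewhere.

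The castaneus pattern was also seen in the fibroblast cultures, which share no library with the comparison of ntESC lines. With 1 library of each kind there is no replicate, and strain, age and body site of the 2 cultures cannot be told apart. Rps2 was at 894 CPM in B6D2F1 MEF and 13.6 CPM in CAST TTF, Rpl7a at 206 and 9.77 CPM, Rpl29 at 66.0 and 7.21 CPM, and Rpl21 at 46.8 and 8.53 CPM. Rps23 and Rpl39, which were not lower in CAST lines, were at 668 and 145 CPM in MEF and at 623 and 180 CPM in TTF. The log2 ratio of TTF to MEF (CPM + 1) was negative in 61 of 76 members, with a median of -0.44. Across the 76 genes it went along with the log2 fold change of CAST against B6D2F1 ntESC lines (Pearson r = 0.91, Spearman rho = 0.66, and r = 0.78 over the other 74 without Rps2 and Rpl7a), given as a description because genes are not replicates. With copies the ratios ran from -1.13 to 0.72, against -5.94 to 0.47 without.

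**Figure D5:**
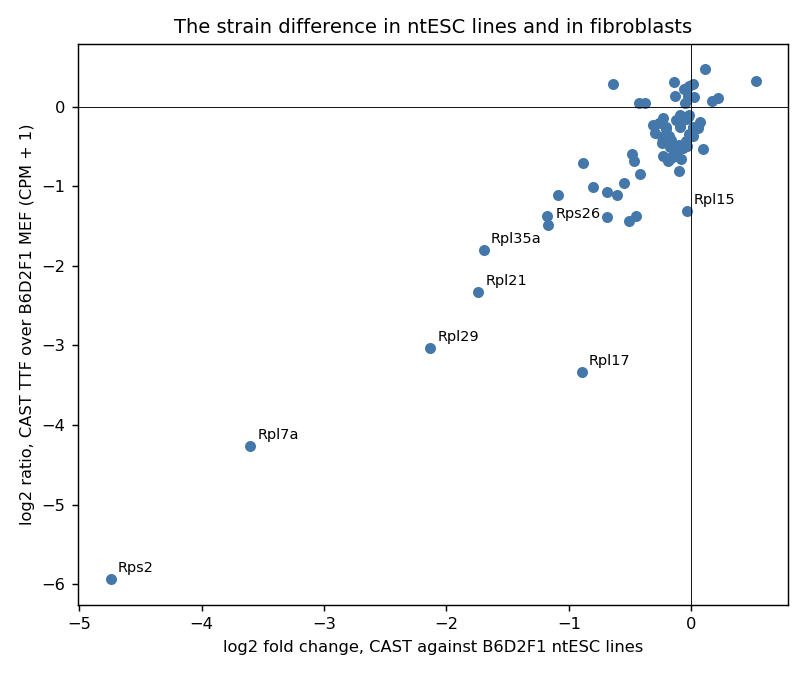
Log2 fold change of each of the 76 genes between CAST and B6D2F1 ntESC lines (horizontal axis) against the log2 ratio of CAST TTF over B6D2F1 MEF (vertical axis, CPM + 1, 1 library each). Rps2, Rpl7a, Rpl29, Rpl21 and Rpl35a are low on both axes; Rpl17, at -3.34 in fibroblasts and -0.89 in CAST lines, lies below genes with a like value in the ntESC lines.

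In 7 members all 9 castaneus libraries, TTF included, lay below all 4 domesticus libraries, MEF included: Rps2, Rpl7a, Rpl29, Rpl21, Rpl35a, Rps15 and Rps26 (2.57% of all genes). In no member did all castaneus libraries lie above (3.39%). The gaps were wide for Rps2 (90.2 against 894 CPM) and Rpl7a (42.0 against 206 CPM) and narrow for Rps15 (519.4 against 522.4 CPM). Feeder cells carry domesticus mRNA of all members. The CAST line with the highest Rps2, #M8 at 90.2 CPM, had fibroblast markers at 5.31% of the MEF level, while #F2, at 7.69%, had Rps2 at 51.3 CPM. The part of the feeders in these levels was not tested.

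The ribosomal protein genes were higher in ntESC lines than in fibroblasts. Of the 76 members, 56 were higher (23.6% of all genes) and none lower (28.2%), with a median log2 fold change of 0.82 against 0.07 over all genes. No member was lower either at an unadjusted p under 0.05. Rpl3, which helps to form the peptidyl transferase centre, was higher by 1.31 ± 0.21 (edgeR adjusted p = 1.9e-04), from 808 and 602 CPM in MEF and TTF to between 1353 and 2225 CPM in the ntESC lines. Rpl18, Rpl7 and Rpl10a were higher by 1.17 to 1.24. The 20 that did not pass included Rps2, Rpl7a, Rpl29, Rpl21, Rpl35a, Rps15, Rps18, Rps23, Rps26 and Rps6. Rps2 had the widest error of these, at -0.32 ± 1.66, with 894 CPM in MEF and 13.6 CPM in TTF. In bulk RNA, a higher share of counts and more RNA per cell cannot be told apart.

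Sex made no detectable difference to the members. In female against male lines none was lower (0.0445% of all genes) or higher (0.00494%) by edgeR, and DESeq2 and limma made no call either. At an unadjusted p under 0.05, each of the 3 tools had 4 members, which by edgeR were Rpl36a, Rps4x, Rpl10 and Rpl13. Rpl10, Rpl36a, Rpl39 and Rps4x lie on chromosome X. Rpl36a, Rpl10 and Rps4x were at 0.21 ± 0.07, 0.20 ± 0.07 and 0.20 ± 0.07 (edgeR adjusted p of 0.64 to 0.73), and Rpl39 was at 0.07 ± 0.07. Rpl36a was at 378 CPM in the male and 473 CPM in the female B6D2F1 line, at 401 and 397 CPM in the male and 441 and 492 CPM in the female CAST lines, and at 335 and 298 CPM in the male and 339 and 362 CPM in the female CASP lines.

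Other genes of the translation machinery were set beside the members. Copies were sought only for the 76 members, so copies of these other genes were not counted. Over all genes tested in castaneus against B6D2F1 lines, 17.2% were lower and 17.2% were higher. Of the ribosomal components outside the symbol rule, Fau (0.17 ± 0.11) and Rack1 (-0.10 ± 0.09) did not pass in castaneus against B6D2F1 lines, and Rps3a1 fell by 0.76, from 1297 CPM to 774 CPM, with its copies not counted. Among 20 transcripts with a 5′ pyrimidine tract outside the 76 genes, Fau and Rack1 included, 4 were lower and 1 higher, with a median of -0.06. Eef1a1, the elongation factor that brings aminoacyl-tRNA, was among the lower ones at -0.54 ± 0.11 (edgeR adjusted p = 0.004). Of 76 mitochondrial ribosomal protein genes, 13 were lower and 8 higher, with a median of -0.07. Of 24 ribosome assembly genes, 4 were lower and 3 higher, with a median of 0.01. Of 9 regulators, 2 were lower and 1 higher, and that was Mycn, at 198 CPM in B6D2F1 and 285 CPM in castaneus lines (0.50 ± 0.16, edgeR adjusted p = 0.038). Against fibroblasts, 15 of the 20 pyrimidine tract transcripts, 19 of the 24 assembly genes and 35 of the 76 mitochondrial genes were higher in ntESC lines, and 5 mitochondrial genes were lower. Of all genes in that comparison, 23.6% were higher and 28.2% were lower.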

How the data were processed

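RNA was sequenced from 10 ntESC lines, 1 ESC line and 2 fibroblast cultures. The count table deposited by the authors holds raw reads per gene, made from stranded poly(A) libraries with fastp 0.22.0, HISAT2 2.2.1 on GRCm38 and StringTie 2.1.7, per the submitters' processing notes. How reads with several best places were counted is not given in the sources used here. The second table deposited by the authors holds log2 values of counts divided by size factors, with a small constant added, and served only in an alternative test with limma. No column of per-sample values was left unmapped.

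Strains were compared with edgeR 4.0.16 (quasi-likelihood test, TMM scaling, filter on low counts) in R 4.3.3, with strain and sex as terms over the 10 ntESC lines. The ntESC lines were compared with the 2 fibroblast cultures in a fit with no covariate. p-values were adjusted over all genes tested by the Benjamini-Hochberg method with a threshold of 0.05. The test was checked on simulated counts. Copies were rows named as a member followed by -ps, whatever their annotation or alignment, and rows found by sequence. The latter were annotated as pseudogenes and aligned best to the member in blastn 2.17.0. Their alignments had at least 90% identity over at least 50% of either sequence. The counts of all copies were added to the member in a second fit. Sequences, coordinates and lengths came from GENCODE M21, in which 21675 of the 21706 rows were found. Alternatives were other scaling factors (RLE, library size, the members alone), no filter, DESeq2 1.42.0, limma 3.58.1, other covariates, other sets of libraries, other gene lengths and copies of any biotype. The last was chosen after seeing the data.

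The members and lists were chosen with earlier results of these data known. Genes named are those with the 5 largest changes passed in each direction of a comparison, a castaneus change of at least 1 on the log2 scale, groups that do not overlap, the 3 highest and 3 lowest levels per kilobase, a place on chromosome X, and ribosomal genes outside the symbol rule. Others were named after their values were seen. Some genes that the rule names are not reported here. Libraries of 33395162 to 49968894 counts were analysed, and lines of a strain differed by more than sampling noise.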

Additional observations from a re-analysis of the deposited data

Results flagged for a closer look

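Among the members that the naming rule covers, 10 are given here for which the effects of the 2 castaneus strains against B6D2F1 differed from each other in the direct test of CASP against CAST (edgeR, adjusted over all genes). Such differences were less frequent in the members than in all genes. In CASP against CAST, 11.8% of the members were lower and 7.89% higher, against 16.4% and 15.2% of all genes. Rps23 (-1.93), Rpl39 (-1.72), Rpl12 (-1.22), Rps6 (-0.80), Rpl30 (-0.78) and Rpl36a (-0.38) were lower in CASP on the log2 scale. Rpl3 (0.37), Rps27 (0.26), Rps9 (0.23) and Rps20 (0.22) were higher. With copies counted in, the differences of Rps23 (-0.06), Rpl39 (-0.09), Rpl12 (-0.03), Rps6 (-0.10) and Rpl30 (-0.13) no longer passed, and that of Rpl36a stayed at -0.38.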

How the results depend on the processing

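Leaving out 1 library at a time gave 22 to 32 lower and 0 to 2 higher members in castaneus against B6D2F1, 16 to 24 and 0 to 1 in CAST, 24 to 32 and 0 to 2 in CASP, 9 to 12 and 1 to 7 in CASP against CAST, 45 to 58 higher and 0 to 0 lower in ntESC lines against fibroblasts, and 0 to 0 by sex. These counts, and those in the next paragraph, are given here without the share of all genes called under each setting. Whether the members moved more than other genes between settings was therefore not examined. No paired analysis was possible because the strains share fewer than 2 line labels that mark the same replicate.

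In castaneus against B6D2F1, the 1 higher member became 3 with library size alone, 2 with DESeq2, 2 with limma on the deposited log2 values, 2 without CASP #F4 and #F6, 8 when scaled to the members and 0 over all 13 libraries. In CAST it became 3 with library size, 2 with limma, 2 without CASP #F4 and #F6 and 5 when scaled to the members. In CASP it became 2, 2, 0 and 10 under the same settings. The 6 higher in CASP against CAST became 2 with library size and 2 without CASP #F4 and #F6. Against fibroblasts, DESeq2 called 1 lower member, and scaling to the members left 3 lower and 2 higher, by construction relative to the members. Under that scaling Rpl10 (-0.48), Rpl23a (-0.23), Rpl24 (-0.12), Rplp1 (-0.43), Rps20 (-0.29), Rps27 (-0.19) and Rps9 (-0.22) turned.

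Adding copies moved most calls of lower members. The lower members became 9 in castaneus, 6 in CAST, 9 in CASP and 4 in CASP against CAST. Of all 19788 genes tested with copies added, 3188, 2856, 3283 and 3237 were lower, in the same order. The higher members became 2 in castaneus, 1 in CAST, 4 in CASP and 5 in CASP against CAST. Of all genes, 3397, 3427, 3533 and 3054 were higher. The cause was not tested. The direction turned in castaneus for Rpl29 (0.0615), Rps19 (0.31) and Rps26 (0.0211), in CAST for Rpl29 (0.0237), Rps19 (0.27), Rps2 (0.0010) and Rps6 (0.0324), and in CASP for Rpl29 (0.10), Rps19 (0.35) and Rps26 (0.11). Copies of any biotype gave the same counts of members in castaneus. They turned the same genes, with Rpl29 at 0.0601 in castaneus and 0.0227 in CAST. The ratio of small to large subunit counts became 0.668, 0.646 and 0.641 in B6D2F1, CAST and CASP, an alternative chosen after seeing the data. The share of the members with copies was 7.99%, 8.06% and 7.79% in B6D2F1, CAST and CASP. Over the tested values of single genes and their settings, 3053 kept direction and side of the threshold, 157 lost the call, 33 gained it and 27 turned.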
